A study of Mus musculus with 35 samples.

Results

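Pulmonary surfactant genes and genes of the alveolar type 2 cell that makes surfactant were followed across 7 styrene concentrations in mouse lung. Of 10 listed genes, 8 were measured: Sftpa1, Sftpc, Sftpd, Abca3, Lpcat1, Napsa, Slc34a2 and Nkx2-1. They were found by symbol in the platform annotation, as every probe set that carries that symbol alone, and they make up 15 of 45037 probe sets and 8 of 17097 genes. Each gene was read from its brightest probe set, and its other probe sets are given beside it. The listed genes Sftpb and Lamp3 are not in the annotation used here and were not analysed.

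Surfactant is a film of phospholipid and protein that lowers surface tension at the air-liquid interface and keeps alveoli open. Type 2 cells make its lipids, load them into lamellar bodies through a lipid transporter, process the surfactant proteins in the same compartments and release both into the airspace. The hydrophilic proteins SP-A and SP-D bind microbes as collectins, the hydrophobic SP-C spreads the film, and NKX2-1 is the transcription factor that drives many of these genes.

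Whole lung came from adult male CD-1 mice, an outbred stock from Taconic, kept individually in cages during exposure and killed on the morning after the last exposure. The groups, of 5 mice each, breathed air alone or styrene, a volatile solvent, at 1, 5, 10, 20, 40 or 120 ppm, and each mouse gave 1 Affymetrix array. The labels disagree on the length of exposure: the treatment text gives 6 hours once and the titles 1 day, while 5 days stands in the title of the series and in the characteristics, and no choice is made between them. All levels below are deposited log2 probe set values, and a difference of 1 on this scale is a doubling.

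Arrays of 5 to 120 ppm stood apart from those of air and 1 ppm over the whole table. The interquartile range of an array was 3.28 to 3.54 log2 from 5 ppm up, against 2.66 to 2.97 at 1 ppm and 2.94 to 3.16 in air. With limma, 68.9% of all 17097 genes passed an adjusted p of 0.05 for 120 ppm against air (29.8% higher, 39.1% lower). The share was 64.8% at 40 ppm, 63.6% at 20 ppm, 66.4% at 10 ppm, 77% at 5 ppm and 2.46% at 1 ppm. Scan dates and batches are not among the labels, so an array batch and the concentration cannot be told apart. All comparisons with air share the same 5 control mice. Alveolar type 2 RNA was present in every sample: Sftpc lay between 13.69 and 13.83 log2 on all 35 arrays, where the highest value in the table was 13.93.

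Of the 8 genes, 1 rose and 2 fell at every concentration from 5 ppm up, and the others were called at 5 ppm alone or not at all. At 120 ppm, 3 of 8 were called against air, beside 68.9% of all genes: Sftpa1 rose, and Lpcat1 and Napsa fell. Sftpa1 was also called higher, and Lpcat1 and Napsa lower, at 40, 20 and 10 ppm. Over all genes the shares called higher and lower were 28.6% and 36.2% at 40 ppm, 29.4% and 34.2% at 20 ppm, and 29% and 37.4% at 10 ppm. At 5 ppm, 5 of 8 were called, with Sftpa1 higher and Abca3, Napsa, Lpcat1 and Nkx2-1 lower, beside 77% of all genes (29.6% higher, 47.4% lower). At 1 ppm limma called 0 of 8, and 0 had an unadjusted p under 0.05, beside 2.46% of all genes called. Sftpc, Sftpd and Slc34a2 were called at no concentration. The median difference of the 8 genes was -0.11 log2 at 120 ppm and -0.27 log2 at 5 ppm, while that of all genes was -0.15 and -0.23 log2. Because whole lung was used, fewer type 2 cells and less RNA per type 2 cell cannot be told apart in any of these values.

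**Figure D1:**
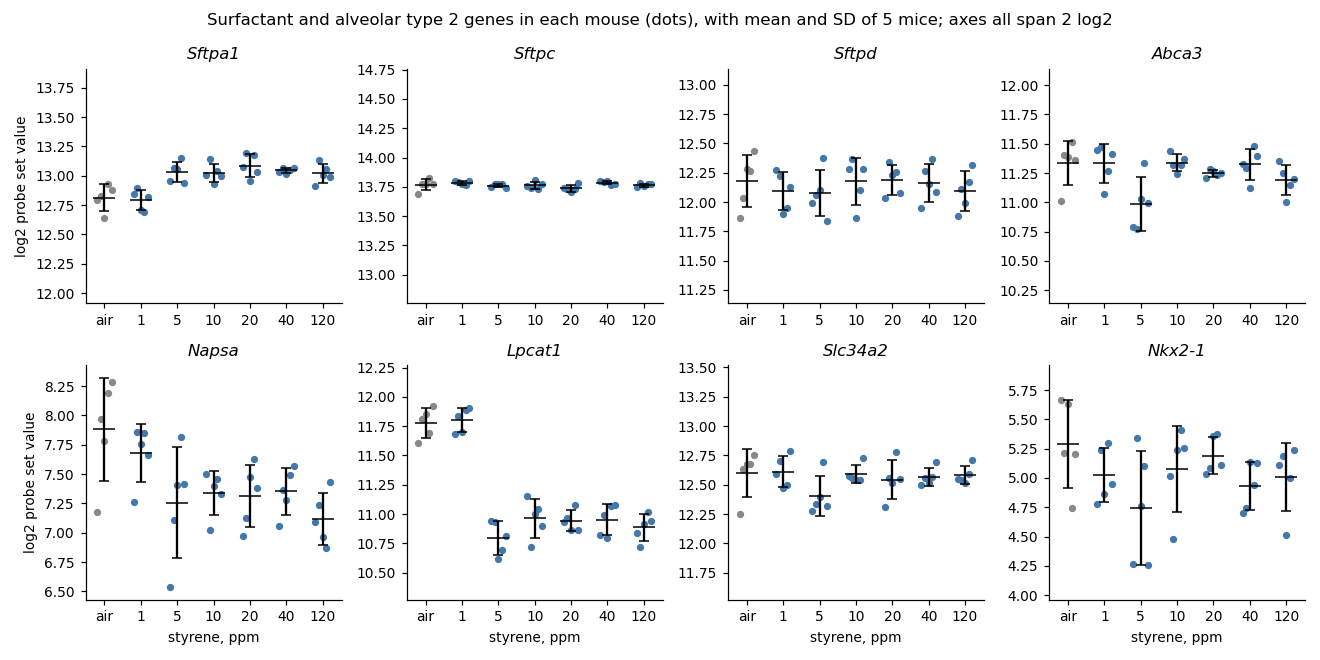
Level of each of the 8 genes in every mouse (dots, log2 probe set value) by styrene concentration in ppm, with air at the left in grey; the long bar is the mean of 5 mice and the whiskers its SD. Lpcat1 is the gene whose mice from 5 ppm up, at 10.62 to 11.16 log2, all lie below those of air and 1 ppm, at 11.60 to 11.92 log2, while Sftpc is flat.

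The promoters of Sftpa1 and Lpcat1 are shown because these genes moved in opposite directions at the same concentrations. They are the 250 bases before each gene's start in RefSeq (GRCm38.p6), for Sftpa1 chr14:41131538-41131787 on the plus strand and for Lpcat1 chr13:73466981-73467230 on the plus strand. Capitals mark matches to 2 motifs, searched on both strands. One is CTCAAG, the core sequence that NKX2-1 is known to bind. The other is the box near many start sites that general transcription factors bind, searched as TATAAA.
Sftpa1: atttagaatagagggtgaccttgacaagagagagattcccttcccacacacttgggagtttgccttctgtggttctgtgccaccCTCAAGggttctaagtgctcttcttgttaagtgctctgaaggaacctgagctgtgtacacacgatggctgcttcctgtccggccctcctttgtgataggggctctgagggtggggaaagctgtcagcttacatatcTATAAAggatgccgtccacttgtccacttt
Lpcat1: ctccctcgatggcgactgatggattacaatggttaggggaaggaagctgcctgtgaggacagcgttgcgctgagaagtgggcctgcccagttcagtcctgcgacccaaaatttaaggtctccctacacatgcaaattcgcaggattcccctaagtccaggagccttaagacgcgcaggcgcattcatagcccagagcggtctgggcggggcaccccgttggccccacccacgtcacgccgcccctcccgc
The Sftpa1 window held the NKX2-1 core with its first base 166 bases before the start and the box at 30 bases before it, both on the gene's own strand and not overlapping. The Lpcat1 window held neither sequence of letters. The core occurred in 13.3% and the box in 12.4% of 32851 promoter windows of this length, and in 2 and 1 of the 7 listed genes with a window (Sftpa1, Sftpb, Abca3, Lamp3, Lpcat1, Slc34a2, Nkx2-1). Napsa, Sftpc and Sftpd had no entry.

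Among the surfactant proteins, Sftpa1, which encodes the collectin SP-A, was higher from 5 ppm up. In air its 5 mice had 12.79, 12.83, 12.64, 12.93 and 12.88 log2, and at 1 ppm 12.84, 12.90, 12.71, 12.69 and 12.82. They had 12.96, 13.06, 13.05, 13.15 and 12.94 log2 at 5 ppm and 12.92, 13.14, 13.00, 13.06 and 12.99 at 120 ppm. The 5 ppm mice all lay above the air mice, by a narrow margin, while the lowest 120 ppm mouse lay below the highest air mouse. Sftpa1 averaged 13.02 ± 0.0822 log2 at 120 ppm and 12.81 ± 0.113 log2 in air (SD, n = 5 each), a difference of 0.21 ± 0.0674 log2 (SE; 1.16-fold; adjusted p = 0.0071). The difference was 0.22 log2 at 5 ppm (adjusted p = 0.00406), 0.21 at 10 ppm (0.00701), 0.27 at 20 ppm (0.000757) and 0.23 at 40 ppm (0.00333). The groups did not overlap with air at 5, 20 and 40 ppm, beside 25.1%, 20.2% and 23.4% of all genes whose exposed mice all lay above the air mice.

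The size of the Sftpa1 difference depended on the probe set. The second probe set, designed on another transcript sequence, read 11.97, 11.64, 11.28, 11.64 and 11.98 log2 at 120 ppm and 9.96, 9.79, 10.23, 10.28 and 10.73 log2 in air, with no overlap. By their brightest probe set, 4169 of 17097 genes had every 120 ppm mouse above every air mouse. The difference of the second Sftpa1 probe set was 1.50 ± 0.145 log2 at 120 ppm (adjusted p = 1.08e-10) and 1.55 log2 at 5 ppm. The distance of 1.29 log2 between the differences of the 2 Sftpa1 probe sets was exceeded by 14% of the 7180 genes with several probe sets. Both probe sets gave the same direction. The brightest one read 12.64 to 13.19 log2 over all arrays, where the highest value in the table was 13.93. Whether that level limited its difference was not tested. For the brightest one the call ended at every concentration from 5 ppm up when the array axis, the main axis of spread between mice of a group, or the array's interquartile range entered the fit (0.13 log2, adjusted p = 0.505, and 0.18 log2, adjusted p = 0.299, at 120 ppm). With each array centred on its median it ended at 5, 10 and 120 ppm (0.12, 0.14 and 0.14 log2; adjusted p = 0.132, 0.0941 and 0.08), and likewise where only the groups compared were fitted (adjusted p = 0.0659, 0.0607 and 0.0688). The covariates had no range shared by air and the groups from 5 ppm up, so their part in the result was not tested.

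Sftpc, the surfactant protein gene most specific to type 2 cells, varied little between groups. Its 7 group means lay within 0.0487 log2 of each other, between 13.74 and 13.79 log2, while the median range over all genes was 0.832 log2. At 120 ppm its mice had 13.75, 13.78, 13.76, 13.77 and 13.77 log2, against 13.69, 13.77, 13.77, 13.82 and 13.77 log2 in air. The groups overlapped, and the 95% interval of the difference ran from -0.0975 to 0.0962 log2 (adjusted p = 0.991). On 8 of the 35 arrays, in 5 groups, the deposited value of Sftpc was the identical 13.7716 log2, and Sftpc was the only 1 of 17097 genes with a value shared by 8 arrays. Its 35 values took 24 distinct levels close to the top of the table, so how far the probe set could register a rise was not tested.

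Sftpd encodes the collectin SP-D and showed no difference that passed the test. It averaged 12.10 ± 0.169 log2 at 120 ppm and 12.18 ± 0.225 log2 in air (SD, n = 5 each), a difference of -0.08 ± 0.115 log2 (SE; 95% interval -0.317 to 0.152; adjusted p = 0.524). At 5 ppm the difference was -0.10 log2, with an interval from -0.339 to 0.130 log2 (adjusted p = 0.405). Mice of 1 group spread more widely in Sftpd than the group means did: the pooled SD within groups was 0.181 log2 and the 7 means lay within 0.115 log2.

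Lpcat1, the acyltransferase that makes the saturated phosphatidylcholine of surfactant, fell at every concentration from 5 ppm up by its brightest probe set. Its mice had 11.60, 11.81, 11.86, 11.69 and 11.92 log2 in air, and 11.68, 11.84, 11.70, 11.89 and 11.91 at 1 ppm. They had 10.94, 10.94, 10.62, 10.69 and 10.81 log2 at 5 ppm, and 11.16, 10.72, 11.00, 11.04 and 10.90 at 10 ppm. They had 10.94, 10.96, 10.87, 11.08 and 10.87 log2 at 20 ppm, 10.82, 10.99, 10.80, 11.06 and 11.08 at 40 ppm, and 10.84, 10.72, 10.92, 11.02 and 10.94 at 120 ppm. All 25 mice from 5 ppm up lay below all 10 mice of air and 1 ppm, a separation in 1 direction or the other that 29.5% of all genes had.

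Lpcat1 averaged 10.89 ± 0.114 log2 at 120 ppm and 11.78 ± 0.129 log2 in air (SD, n = 5 each), which is 1.85-fold lower (-0.89 ± 0.0875 log2, SE; adjusted p = 1.16e-10). The differences at 5, 10, 20 and 40 ppm were -0.98, -0.81, -0.83 and -0.83 log2 (adjusted p = 7.7e-12, 9.65e-10, 7.12e-10 and 7.59e-10). The 5 means from 5 to 120 ppm were 10.80, 10.96, 10.94, 10.95 and 10.89 log2, with the lowest at 5 ppm, beside an SD within groups of 0.128 log2. Lpcat1 at 5 ppm differed from the mean of 10, 20 and 40 ppm by -0.15 ± 0.0714 log2 (SE; 95% interval -0.299 to -0.00843; adjusted p = 0.0825). That difference was called after centring on array medians (-0.19 log2, adjusted p = 0.0323), with the mean of its probe sets (-0.20 log2, adjusted p = 0.00286) and without 10 ppm mouse 2 (-0.17 log2, adjusted p = 0.0412). At 5, 10, 20, 40 and 120 ppm every Lpcat1 value lay below every air value, beside 32.7%, 25.8%, 21.2%, 24.2% and 26.3% of all genes that did so. Read from the brightest probe set or the mean of its probe sets, the Lpcat1 calls against air held under every alternative tried. The difference at 120 ppm was -1.08 log2 with the array axis and -0.91 log2 with the interquartile range in the fit. Those covariates had no range shared by air and the groups from 5 ppm up. The trend over log2(ppm + 1), which was -0.14 ± 0.0212 log2 per unit (SE; adjusted p = 1.15e-06), ended as a call with the interquartile range in the fit (-0.05, adjusted p = 0.137).

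All 5 Lpcat1 probe sets were called lower at 5, 40 and 120 ppm, in different amounts, and 2 of them missed the threshold at other concentrations. The brightest one carries the suffix that the manufacturer gives to probe sets that more than 1 transcript can match. Probe sets 2 and 3, designed on the same source sequence as it, differed from air by -0.29 and -0.68 log2 at 120 ppm (adjusted p = 0.0122 and 1.36e-07) and by -0.50 and -0.91 log2 at 5 ppm. Probe set 2 differed from air by -0.21 log2 at both 10 and 20 ppm and was not called there (adjusted p = 0.0728 and 0.0773). At 5 ppm both were called lower than the mean of 10, 20 and 40 ppm (-0.28 and -0.32 log2; adjusted p = 0.00652 and 0.00135). Probe sets 4 and 5, from another sequence, had mean levels of 3.74 and 3.44 log2, under every array's median of 4.35 or more, and differed by -0.49 and -0.25 log2 at 120 ppm, and probe set 5 was not called at 20 ppm (-0.18 log2, adjusted p = 0.125). The mean of the 5 probe sets was -0.52 log2 at 120 ppm.

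Abca3, the transporter that moves phospholipid into lamellar bodies, was lower at 5 ppm alone. Its mice had 10.79, 10.77, 11.02, 11.34 and 11.00 log2 at 5 ppm, against 11.02, 11.41, 11.38, 11.51 and 11.36 log2 in air. All 5 ppm mice lay below 4 of the 5 air mice, and air mouse 1 lay among them, so the groups overlapped. The difference was -0.35 ± 0.0988 log2 (SE; 1.28-fold lower; adjusted p = 0.00195). Abca3 at 5 ppm was also lower than the mean of 10, 20 and 40 ppm (-0.32 ± 0.0807 log2, adjusted p = 0.00178), the only gene of the 8 called in that comparison, beside 42.3% of all genes (28.8% lower). At 120 ppm the difference from air was -0.15 log2 (adjusted p = 0.185), and without air mouse 1, the lowest of its group, it was -0.23 log2 and called (adjusted p = 0.0387).

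The 3 probe sets of Abca3 disagreed in direction. The second, designed on the same source sequence as the brightest, was lower at 5 ppm (-0.51 log2, adjusted p = 0.000208) and at 120 ppm (-0.26 log2, adjusted p = 0.0469). Probe set 3, designed on another sequence, read 6.74, 6.54, 6.19, 6.36 and 6.45 log2 at 120 ppm and 4.71, 5.79, 4.62, 5.18 and 5.70 log2 in air. It was higher in every 120 ppm mouse than in any air mouse, as 4169 of 17097 genes were by their brightest probe set. Its difference was 1.25 ± 0.192 log2 at 120 ppm (SE, adjusted p = 9.8e-07) and 1.49 log2 at 5 ppm. With the mean of the 3 probe sets, Abca3 was higher than air at 120 ppm (0.28 log2, adjusted p = 0.011) and at 5 ppm (0.21 log2, adjusted p = 0.0488). Probe sets called in both directions at 120 ppm occurred in 7.31% of the 7180 genes with several. The direction of Abca3 therefore rests on the probe set read, and its 5 ppm call ended with the array axis (-0.62 log2, adjusted p = 0.061) and with the interquartile range (-0.41 log2, adjusted p = 0.131) in the fit.

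**Figure D2:**
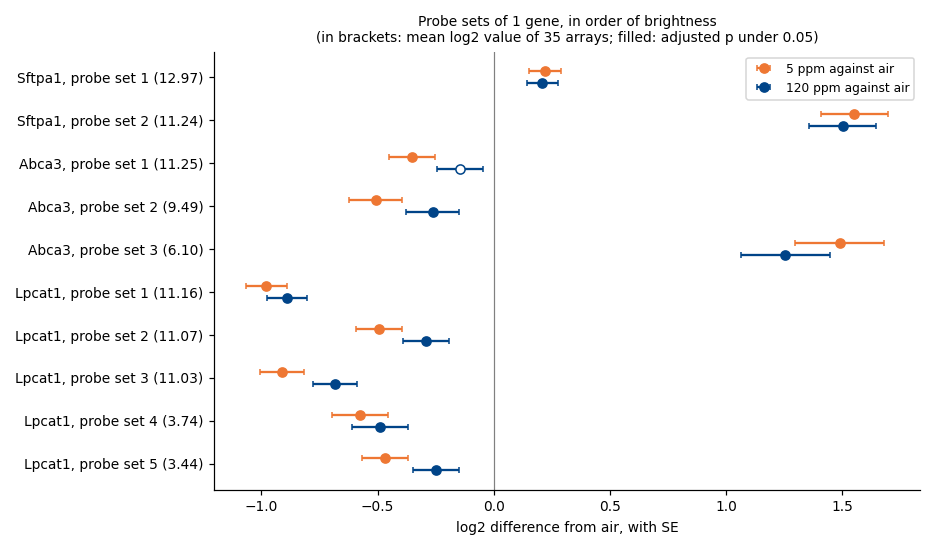
Log2 difference from air at 5 ppm (orange) and 120 ppm (blue), with SE, for every probe set of Sftpa1, Abca3 and Lpcat1, brightest first; filled points passed an adjusted p of 0.05, and brackets give the mean log2 level of 35 arrays. The Lpcat1 probe sets all lie below 0 and the Sftpa1 ones above it, while probe set 3 of Abca3, at 1.25 log2 for 120 ppm, lies opposite to the other 2.

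Napsa encodes napsin A, the aspartic protease of lamellar bodies that helps to process SP-B, and fell from 5 ppm up. Its mice had 7.09, 7.23, 6.96, 6.87 and 7.43 log2 at 120 ppm, against 7.17, 7.97, 7.79, 8.19 and 8.28 log2 in air. The exposed mice lay below 4 of the 5 air mice, and air mouse 1 lay among them, so the groups overlapped, as they did at every other concentration. Napsa averaged 7.12 ± 0.222 log2 at 120 ppm and 7.88 ± 0.440 log2 in air (SD, n = 5 each), which is 1.70-fold lower (-0.76 ± 0.188 log2, SE; adjusted p = 0.000617). The differences at 5, 10, 20 and 40 ppm were -0.62, -0.54, -0.56 and -0.53 log2 (adjusted p = 0.00349, 0.0125, 0.00979 and 0.0147). The 40 ppm call ended without air mouse 5 (-0.43 log2, adjusted p = 0.0541). With the array axis in the fit the calls at 5, 10, 20 and 40 ppm ended (-0.96, -0.77, -0.76 and -0.73 log2; adjusted p = 0.15, 0.0973, 0.0531 and 0.0732), while with 1 ppm in place of air those at 10, 20 and 40 ppm did (-0.34, -0.36 and -0.33 log2; adjusted p = 0.106, 0.0863 and 0.12).

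Slc34a2, the sodium-phosphate cotransporter of the type 2 cell's apical membrane, was called at no concentration in the fit reported, though it was at 5 ppm under 8 of the 11 alternatives that keep every mouse. Its mice had 12.28, 12.34, 12.39, 12.70 and 12.32 log2 at 5 ppm, against 12.25, 12.63, 12.68, 12.68 and 12.76 log2 in air. In each group 4 mice lay close together and 1 stood apart towards the other group. The difference at 5 ppm was -0.19 ± 0.0924 log2 (SE; adjusted p = 0.0553), just above the 0.05 threshold, and it was called without air mouse 1 (-0.28 log2, adjusted p = 0.00418) or without 5 ppm mouse 4 (-0.27 log2, adjusted p = 0.0095). It was also called with the array axis (-0.63 log2, adjusted p = 0.0309), the interquartile range (-0.47 log2, 0.0485), centring on array medians (-0.30 log2, 0.00741) or 1 ppm in place of air (-0.21 log2, 0.0427). Air and 5 ppm shared no range of the array axis or of the interquartile range. With the difference at -0.19 log2 Slc34a2 was called under the replicate block, the trended prior, without dim genes and over means of probe sets (adjusted p = 0.0352, 0.0343, 0.0479 and 0.0484). At 120 ppm Slc34a2 averaged 12.58 ± 0.0764 log2, against 12.60 ± 0.201 log2 in air (SD, n = 5 each), with a 95% interval of the difference from -0.205 to 0.171 log2 (adjusted p = 0.875).

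Nkx2-1, the transcription factor named above, had a low reading, with a mean of 5.04 log2 over all arrays beside array medians of 4.35 to 4.56 log2. Its mice had 4.27, 5.34, 4.76, 5.11 and 4.26 log2 at 5 ppm, against 5.66, 5.21, 5.63, 4.74 and 5.21 log2 in air, with wide overlap. The difference of -0.55 ± 0.194 log2 (SE) was called (adjusted p = 0.0118). It was not called without 5 ppm mouse 1 (-0.43 log2, adjusted p = 0.052) or 5 ppm mouse 5 (-0.42 log2, adjusted p = 0.0534), nor with 1 ppm in place of air (-0.28 log2, adjusted p = 0.184), the array axis (-0.35 log2, adjusted p = 0.689) or the interquartile range (-0.23 log2, adjusted p = 0.717). At 120 ppm the difference was -0.28 log2 (adjusted p = 0.194), and after quantile normalization it was -0.57 log2 and called (adjusted p = 0.0102).

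**Figure D3:**
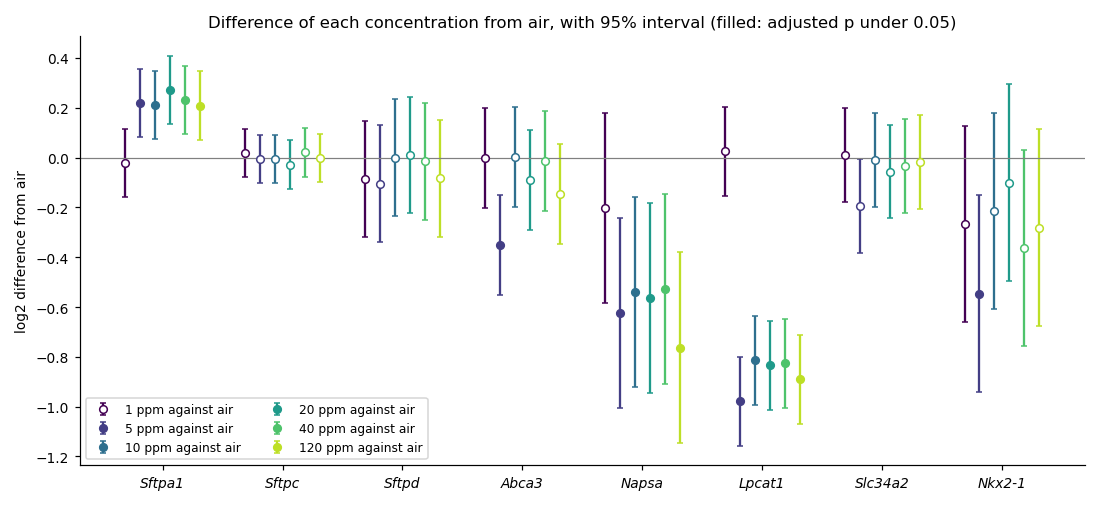
Log2 difference from air of each of the 8 genes at 1, 5, 10, 20, 40 and 120 ppm (left to right within a gene), with the 95% interval; filled points passed an adjusted p of 0.05. Sftpa1 lies above 0 and Lpcat1 and Napsa below it at the 5 concentrations from 5 ppm up, and Abca3 and Nkx2-1 have a filled point at 5 ppm alone.

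The highest concentration was compared with the next one below it. For 120 against 40 ppm limma called 0 of 8, and 0 of 8 passed 0.05 before adjustment, beside 0.0175% of all genes. The trend over log2(ppm + 1) called 3 of 8, beside 72.6% of all genes (30.9% higher, 41.8% lower): Sftpa1 at 0.04 log2 per unit (adjusted p = 0.000631), Lpcat1 as above, and Napsa at -0.10 log2 per unit (adjusted p = 0.000514). A slope does not separate a graded change from a step between 1 and 5 ppm. The means at 1, 5 and 120 ppm were 12.79, 13.03 and 13.02 log2 for Sftpa1. For Napsa they were 7.68, 7.26 and 7.12 log2. The test of any difference among the 7 groups called 4 of 8, Sftpa1, Abca3, Napsa and Lpcat1, beside 82.4% of all genes. The range of a gene's 7 means was 1.00 log2 for Lpcat1, 0.763 for Napsa, 0.546 for Nkx2-1, 0.353 for Abca3, 0.292 for Sftpa1, 0.205 for Slc34a2, 0.115 for Sftpd and 0.0487 for Sftpc, while the median over all genes was 0.832 log2.

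Some mice were extreme in several of these genes at once. Air mouse 1 was the lowest of its group in 6 of the 8 (Sftpc, Sftpd, Abca3, Napsa, Lpcat1 and Slc34a2), beside 27.5% of all genes in which it was the lowest. At 5 ppm, mouse 4 was the highest in 6 of the 8 (Sftpa1, Sftpc, Sftpd, Abca3, Napsa and Slc34a2), beside 31.5% of all genes. In Sftpc it was level with mouse 3. At 20 ppm, mouse 1 was the lowest in 5 of the 8, beside 16.5% of all genes. The mice named are those with the largest such counts, in either direction.

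By the shape of their 7 group means, the genes nearest to Lpcat1 were Lurap1, Sirt7 and Hps4, with root mean square differences of 0.0208, 0.0353 and 0.0385 log2 over the 7 groups. Those nearest to Sftpa1 were Golga7 (0.0211), Nudc (0.0223) and Lyz1 (0.023). For Napsa they were Mcpt8 (0.0347), Ryr1 (0.0412) and Uchl1 (0.045), and for Abca3 Kctd20 (0.0259), Arid1a (0.0275) and Arf3 (0.0304). Among the 8 genes themselves the closest pair was Sftpc and Sftpd, both nearly flat, at 0.052 log2, and Napsa was the one nearest to Lpcat1 at 0.192 log2.

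Other genes of the type 2 cell and of surfactant moved in both directions at 120 ppm. The counts of each list are to be read beside the whole table, where 29.8% of genes were called higher and 39.1% lower. Each listed gene was read from its brightest probe set alone. Of 19 other type 2 markers measured, 7 rose and 4 fell, with a median of 0.18 log2, beside 68.9% called and a median of -0.15 log2 over all genes. Cxcl15, a lung chemokine, rose by 0.64 ± 0.0823 log2 (SE; adjusted p = 3.52e-08) and Dram1, a lysosomal autophagy regulator, by 1.13 log2 (adjusted p = 1.92e-07). Lgi3, a secreted protein, fell by 0.91 log2 (adjusted p = 2.98e-07), and Mlc1, a membrane protein, by 1.18 log2 (adjusted p = 1.03e-06). Of these 19 markers, 3 were called with the array axis in the fit and 5 with the interquartile range. Over all genes those fits called 24.3% and 29.5%, the shares to set beside each such count at 120 ppm.

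Of 23 lipid synthesis genes measured, 9 rose and 7 fell, with a median of 0.12 log2. Cept1, which joins choline or ethanolamine to the lipid backbone, averaged 9.88 ± 0.147 log2 at 120 ppm and 7.98 ± 0.229 log2 in air (SD, n = 5 each) and rose by 1.90 ± 0.104 log2 (SE; adjusted p = 1.05e-15). Gpam, the first acyltransferase of glycerolipid synthesis, rose by 1.06 log2 (adjusted p = 1.06e-09) and Acly, which supplies acetyl-CoA, by 0.97 log2 (adjusted p = 6.22e-08). Scap, the sterol-sensing escort of the SREBP factors, fell by 1.39 log2 (adjusted p = 8.18e-14). Of the 23, 6 were called with the array axis in the fit.

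Of 14 genes of lamellar body formation, secretion and protein processing, 8 rose and 4 fell, with a median of 0.82 log2. Lyst, a regulator of lysosome-related organelles, rose by 2.07 log2 (adjusted p = 6.79e-12), Atp8a1, a phospholipid flippase, by 1.98 log2 (adjusted p = 1.81e-11) and Ctsc, a lysosomal protease, by 1.60 log2 (adjusted p = 8.34e-12). Hps4, a subunit of the complex that builds lysosome-related organelles, fell by 1.00 log2 (adjusted p = 1.32e-11). Of the 14, 7 were called with the array axis in the fit.

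Of 19 transcription factors and signals of type 2 cells, 13 rose and 3 fell, with a median of 0.89 log2. The glucocorticoid receptor Nr3c1 rose by 2.18 log2 (adjusted p = 4.89e-12), the Hippo pathway coactivator Wwtr1 (TAZ) by 1.73 log2 (adjusted p = 2.12e-12) and the nuclear receptor coactivator Ncoa1 by 0.96 log2 (adjusted p = 8.96e-11). Cebpa, a factor of type 2 cell maturation, fell by 1.33 log2 (adjusted p = 7.9e-12). Of these 19 genes, 8 were called with the array axis in the fit and 6 with the interquartile range.

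Of 8 surfactant clearance genes, which act largely in alveolar macrophages, 2 rose and 2 fell, with a median of -0.01 log2. Pparg, a nuclear receptor of alveolar macrophages, rose by 1.73 log2 (adjusted p = 9.94e-10) and Lpl, lipoprotein lipase, by 0.72 log2 (adjusted p = 0.0313). Spi1 (PU.1), a myeloid transcription factor, fell by 1.28 log2 (adjusted p = 3.04e-09), and Pla2g15, a lysosomal phospholipase, by 0.94 log2 (adjusted p = 1.23e-07). Of these 8, 2 were called with the array axis in the fit.

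**Figure D4:**
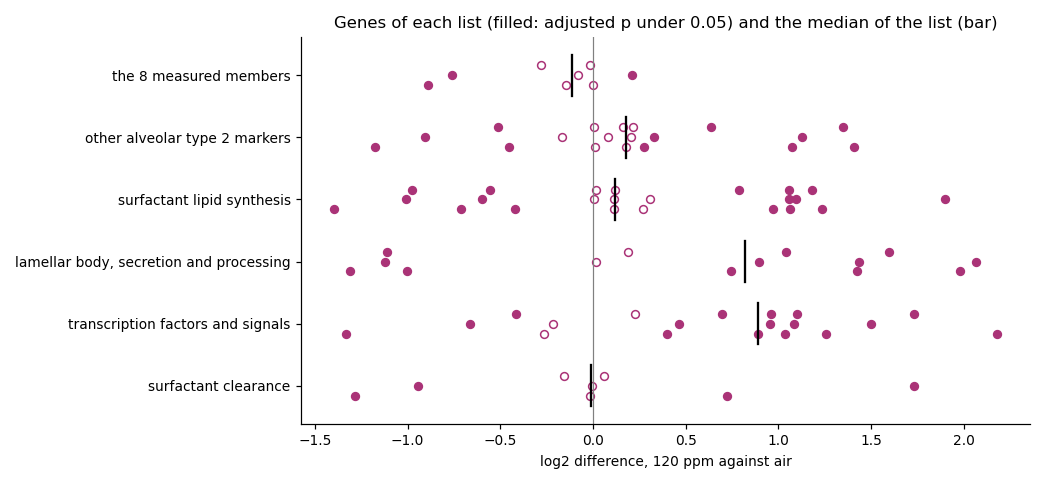
Log2 difference between 120 ppm and air for each gene of 6 lists, 1 dot per gene (filled: adjusted p under 0.05; vertical scatter only separates dots), with the median of the list as a bar. The 8 measured surfactant and type 2 genes lie between -0.89 and 0.21 log2, and the other lists reach from -1.39 to 2.18 log2.

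Markers of other lung cells were called in both directions at 120 ppm, beside 29.8% of all genes called higher and 39.1% lower. The mean level of 7 alveolar macrophage markers was 8.84 to 9.59 log2 at 120 ppm and 7.98 to 8.49 log2 in air, with 5 called higher and 1 lower. That of 11 alveolar type 1 markers was 11.18 to 11.46 log2 at 120 ppm and 10.84 to 11.18 log2 in air, with 6 called higher and 4 lower. Of 6 ciliated cell markers 4 were higher and 2 lower, of 6 endothelial markers 3 and 2, of 6 club cell markers 2 and 0, and of 6 fibroblast markers 1 and 2. The mean of 3 red blood cell markers was 8.98 to 9.74 log2 at 120 ppm and 10.26 to 10.91 log2 in air, with 2 called lower. Of 5 muscle markers 2 were called lower, and of 3 liver markers none was called (mean level 3.25 to 5.35 log2 at 120 ppm, 3.59 to 6.51 log2 in air). The part of these markers in the differences of Sftpa1, Lpcat1 and Napsa was not tested.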

How the data were processed

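Whole-lung RNA of 35 mice in 7 groups of 5 was measured on Affymetrix arrays labelled with a 3' primed kit, per the labels' protocols. The authors deposited 1 log2 value per probe set and array, summarised with RMA, and Partek is also named, per the submitters' processing notes, with no version or role. RMA can pull low signals together and so understate differences of dim probe sets, which was not tested for Nkx2-1. Arrays have no read depth, and their number limits the precision.

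Of 45037 probe sets, 28898 carry 1 symbol in the platform annotation, 551 several and 15588 no gene in it. A gene was read from its brightest probe set with 1 symbol, by the mean of 35 arrays, which gave 17097 genes. The Entrez identifiers of 8 of 8 measured members match the reference gene table. limma 3.58.1 (lmFit, eBayes) in R 4.3.3 was fitted to all genes and arrays, with a mean per group. Tests are two-sided, with Benjamini-Hochberg adjustment over all genes and calls at an adjusted p under 0.05. The fit was tested on simulated data. Replicates are labelled as biological, and p-values cover only the spread between these mice. Errors are the SD between 5 mice or the SE of the fit.

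Members and lists were chosen with earlier results of these data known. All members are named. From each other list up to 4 genes are named, those called at 120 ppm against air with the smallest adjusted p, as are genes with the smallest root mean square difference from a member over the 7 centred group means.

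Alternatives were quantile normalization, centring each array on its median, leaving out genes under the median level, the average over the probe sets of a gene, every probe set tested alone, fitting only the groups compared, the replicate number as a block, the array axis (which carries 18.8% of the spread within groups) or the interquartile range as a covariate, a trended and robust prior, 1 ppm in place of air, and leaving out each mouse. Where every probe set was tested alone, a gene was still read from its brightest one. No label says what mice with the same replicate number in different groups share. Of 35 same-number correlations between groups' deviations, 14 exceeded 0.1, and whether the numbers mark a batch was not tested. Promoters are from RefSeq (GRCm38.p6). Counts of the other lists under the alternatives were added after seeing the data.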

Additional observations from a re-analysis of the deposited data

Results flagged for a closer look

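Slc34a2 had 1 mouse far from the other 4 of its group in 3 groups, by the gap to the nearest mouse over the whole range of the group. Mouse 5 at 10 ppm read 12.73 log2 with the others at 12.54 to 12.58, mouse 4 at 5 ppm read 12.70 with the others at 12.28 to 12.39, and air mouse 1 read 12.25 with the others at 12.63 to 12.76. These were 3 of 56 groups of values examined, and chance gives about 1 in 20. The cause was not tested.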

How the results depend on the processing

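Of 103 counts of called genes under an alternative that kept all mice, 90 stayed within 1.5 times the value reported, and so did 48 of 55 counts of the other lists. Of 320 values of single members, 273 kept their direction and side of the threshold, 33 lost the call, 11 gained one and 3 reversed. Adjusted for the array axis, the counts of members called against air were 1 at 40, 20 and 10 ppm and 2 at 5 ppm, Lpcat1 and Slc34a2, and those of the trend and of any difference were 1 and 1. The share of all genes called in these fits was 30.2%, 30.4%, 23.9% and 16.2% at 40, 20, 10 and 5 ppm, 28.3% for the trend and 37.8% for any difference. With the interquartile range the counts were 3 at 5 ppm (Napsa, Lpcat1 and Slc34a2; 34.1% of all genes), 0 for the trend (6.94%) and 1 for any difference (46.1%). In those fits air and 5 ppm upwards shared no range of the covariate. For 5 ppm against the mean of 10, 20 and 40 ppm, 3 members were called after centring on array medians (46.7% of all genes). The count was 2 with the mean of probe sets (44% of all genes), the array axis (4.97%) or the interquartile range (34.3%). In the fit reported it was 1, beside 42.3% of all genes. Leaving out 1 mouse gave 1 to 3 there: 2 without 5 ppm mouse 2, 5 ppm mouse 4 or 20 ppm mouse 1, and 3 without 10 ppm mouse 2. The cause was not tested.

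Reversals were Abca3 with the mean of probe sets (0.28 log2 at 120 ppm and 0.21 at 5 ppm), where its probe set 3 opposes the others, and Sftpd at 120 ppm with 1 ppm in place of air (0.0031 log2). Leaving out 1 mouse moved Sftpc between -0.019 and 0.0139 log2 at 120 ppm and between -0.0235 and 0.00944 log2 at 5 ppm, and Slc34a2 at 120 ppm between -0.10 and 0.0224 log2. The median of all genes at 5 ppm was -0.23 log2, and -0.33 after centring on array medians. The replicate block gave 6 called members at 5 ppm, beside 77.3% of all genes, against 5 and 77% without it. It added Slc34a2 (-0.19 log2, adjusted p = 0.0352) and changed no other count of members. Correlations of same-numbered mice ran from -0.206 to 0.387. For 120 against 40 ppm 4 of 5 exceeded 0.1 and for 5 ppm against air 3 of 5, the other 2 being 0.00458 and 0.0299, so in no comparison did every pair exceed it, and the numbers were not taken as pairs. Signal near the array median limits Nkx2-1, and values near the top of the table limit Sftpc.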
